A study of Mus musculus with 12 samples.

Results

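The livers of Sham mice, which were fed a high-fat diet and received a sham operation, were compared by RNA-seq with the livers of Control mice, which were kept on chow and were not operated on. The comparison was defined by these group labels and used 4 of the 12 samples of the series, 2 Sham and 2 Control RNA libraries. Gene expression was given as FPKM, the number of sequenced fragments scaled to transcript length and library size, and was summed over the transcripts of each gene symbol. Of 24023 genes with a symbol, 9235 passed a minimum FPKM of 1 in 2 or more of the 4 libraries and were compared on the log2(FPKM + 1) scale, which understates the change of genes with low FPKM. The groups did not overlap for a gene when both mice of a group lay above both mice of the other, and a gene at least 2-fold apart also differed by at least 1 on this log2 scale. The rest of the series holds mice after vertical sleeve gastrectomy (VSG) and FAIRE-seq libraries, which recover accessible chromatin, from the same livers. The 2 VSG RNA libraries entered only the estimate of the spread between mice.

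All animals were wild-type C57BL/6J male mice. Control mice received normal chow for 28 weeks. Sham mice were started at 8 weeks of age on the D12492 diet, with 60 kcal% from fat, and stayed on it for 14 weeks before and 14 weeks after surgery, apart from a liquid diet on the 4 days after the operation. The sham operation exposed the stomach and pressed it with forceps without removing tissue. Diet and operation therefore differed together between the groups, and their contributions cannot be told apart. Whole liver tissue was sequenced, so that fewer cells of a type and less RNA per cell cannot be told apart either.

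The liver handles dietary fat by taking up fatty acids, storing them as triglyceride in lipid droplets, oxidising them in mitochondria and peroxisomes, and exporting them in lipoproteins. Its hepatocytes also make glucose, break down amino acids into urea, clear foreign compounds with cytochrome P450 enzymes, and secrete plasma proteins, some of which, the acute phase proteins, are released in larger amounts during inflammation. Kupffer cells, the resident macrophages, and sinusoidal endothelial cells line the blood spaces between the hepatocytes.

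The libraries differed in precision. Between the mice of a group, 9.6% of genes were at least 2-fold apart in Control and 21.5% in Sham mice. These shares cover genes that reached the minimum FPKM in either mouse of that group, so the gene sets can differ. Pearson's r across genes was 0.924 within Control, 0.867 within Sham and 0.853 to 0.878 between the groups. The depth in reads is unknown. From the smallest FPKM steps, libraries had 0.833 of the depth of Control mouse 1 in Control mouse 2, 0.676 in Sham mouse 1 and 1.17 times that depth in Sham mouse 2. A value of exactly 0 occurred in at least 1 of the 4 libraries for 997 of the 9235 genes (10.8%). Among them were genes that liver cells use throughout. Apob, for example, was at 231 in Sham mouse 2 and listed at 0 in Sham mouse 1. Such values are given here as listed at 0 and not as absence. Hepatocyte markers were abundant in all 4 livers, with a summed FPKM over the 10 tested of 24834 and 21737 in Control and 20027 and 19997 in Sham mice. Their median log2 difference was -1.2, but -0.24 without Sham mouse 1 and -0.57 over the 8 not listed at 0, and the 3 that were at least 2-fold lower were the metabolic enzymes Tat, Pck1 and Cps1. Alb has no row that could be matched here and was not analysed here.

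At a false discovery rate of 10%, limma called 15 genes higher (0.162% of all tested) and 22 lower (0.238%) in Sham mice, 0.401% in all. At an unadjusted p under 0.05, 6.93% were higher and 4.68% lower. Of these 37 genes, 26 were listed at 0 in at least 1 of the 4 libraries, including 10 of the higher ones at 0 in both Control mice and 15 of the lower ones at 0 in both Sham mice, and 7 were small nucleolar RNAs or microRNAs, which are short for this kind of library. The count of limma calls was 0 without Control mouse 1 and 0 without Control mouse 2, with 598 and 539 genes at an unadjusted p under 0.05, and it was 59 without Sham mouse 1 and 170 without Sham mouse 2. With an FPKM of at least 1 in all 4 libraries it was 0 as well, with 820 of 7090 genes at an unadjusted p under 0.05. In a count without a test, 522 genes (5.65%) were at least 2-fold higher in Sham mice with no overlap between the groups and 515 (5.58%) were at least 2-fold lower. With genes listed at 0 left out, these counts were 378 and 336. Without a fold limit, both Sham mice lay above both Control mice for 25.4% of all genes and below them for 21.3%, together 46.7%, and these shares are the background for the gene groups described here. A gene that reached the FPKM limit through the mice of 1 group alone could only come out higher in that group. Such genes are part of these shares and of the counts for the gene groups. An exact permutation test of 2 mice against 2 cannot go below p = 0.333 (2-sided).

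Genes named for an increase had no overlap, values above 0 in all 4 libraries and an FPKM of at least 5 in both Sham mice. Among them, Ucp2, Ly6d, Tmem98 and Ubd had the smallest p. Ucp2, a carrier of the inner mitochondrial membrane, had an FPKM of 10 and 8.42 in the Control mice and of 42.9 and 50.9 in the Sham mice. It rose by 2.23 ± 0.22 (SE) on the log2 scale, with a limma adjusted p of 0.0614. Ly6d, a small cell surface protein of the Ly6 family, was at 1.01 and 1.22 in Control and at 82.5 and 148 in Sham mice, a log2 difference of 5.72 ± 0.57 (limma adjusted p = 0.064). Ubd, a ubiquitin-like protein known to be induced by inflammatory cytokines, stood at 0.385 and 0.173 in Control against 28.5 and 11.4 in Sham mice (3.91 ± 0.47, limma adjusted p = 0.0985). For each of these genes the lowest Sham mouse exceeded the highest Control mouse several-fold, but they were chosen for no overlap and a small p.

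The next genes in this order lay just above the 10% limit. Ifi27l2b, an interferon-inducible gene, had FPKM values of 2.66 and 2.34 in Control and of 64 and 39.1 in Sham mice (3.87 ± 0.47, limma adjusted p = 0.102). Slpi, a secreted inhibitor of leukocyte proteases, was at 0.157 and 0.315 in Control and at 8.31 and 16.3 in Sham mice (3.36 ± 0.46, limma adjusted p = 0.137). Cldn1, which encodes a tight junction protein, read 6.68 and 4.78 against 19.4 and 22.8. Nenf and Serinc2 completed the named genes on this side, with Sham values of 33.9 and 27.7 for Nenf and of 18.4 and 16.8 for Serinc2, all above both Control values.

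On the other side, Cyp2b10, Scd3, Tat, Gm20594, Slc43a3 and Scd2 fell. Cyp2b10, a P450 enzyme and the classic target of the xenobiotic receptor CAR, was at 8.46 and 8.81 in Control mice and at 0.0389 and 0.009 in Sham mice, a log2 difference of -3.23 ± 0.22 (limma adjusted p = 0.0211). Tat, which starts the breakdown of tyrosine, dropped from 1376 and 1477 to 210 and 188 (-2.84 ± 0.24, limma adjusted p = 0.0412). Slc43a3, a solute carrier, went from 9.09 and 7.61 to 1.35 and 1.22 (limma adjusted p = 0.0735). In all of them the Sham mice were closer to each other than to either Control mouse, which follows from their choice by no overlap and a small p.

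**Figure D1:**
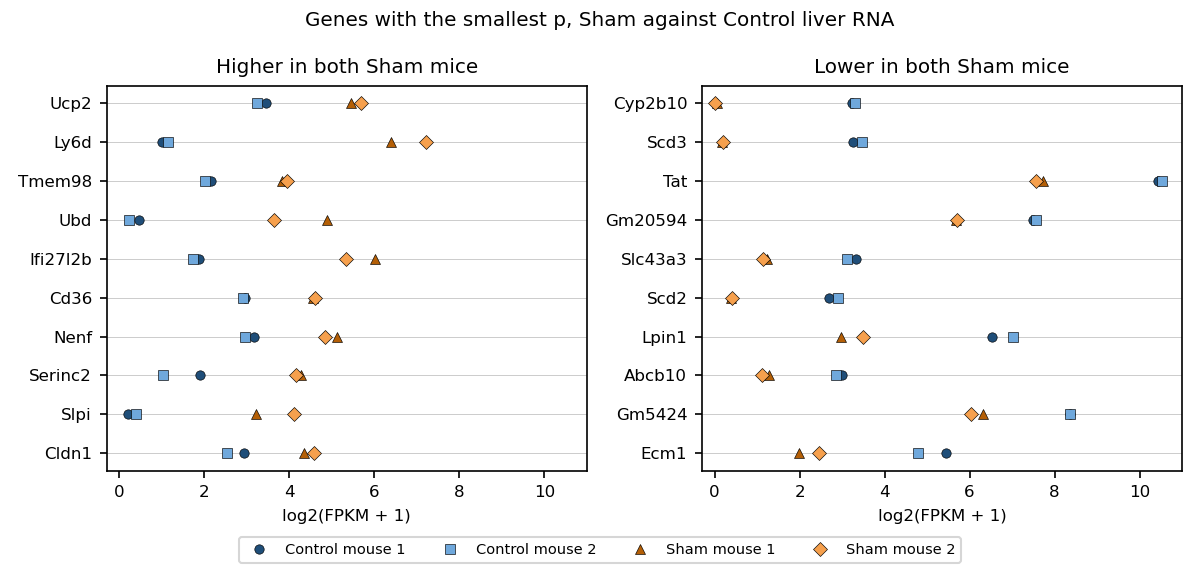
Expression as log2(FPKM + 1) of the 10 genes with the smallest p in each direction among genes above 0 in all 4 libraries, with 1 point per mouse (circles and squares, Control; triangles and diamonds, Sham). No gene shows overlap between the groups, since the genes were chosen on that ground, and the Sham values of Ly6d, at 82.5 and 148 FPKM, lie farthest from Control among the higher genes.

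Genes of fat uptake and storage were mostly higher in Sham liver, while genes of fatty acid synthesis and desaturation were mostly lower. Of 21 steatosis and lipid droplet genes tested, 7 were at least 2-fold higher without overlap (33.3%, against 5.65% of all genes) and 1 was lower, and the median log2 difference was 0.65, against 0.023 over all genes. Of the 21, 3 were listed at 0 in at least 1 library, and the median over the others was 0.61. Cd36, a fatty acid translocase of the cell surface, was at 6.73 and 6.48 in Control and at 22.5 and 23.3 in Sham mice (1.65 ± 0.21, limma adjusted p = 0.106). Cidea, a lipid droplet protein that is scarce in lean liver, had values of 0.0367 and 0.0441 in Control and of 12.9 and 5.3 in Sham mice. It passed the FPKM limit through the Sham mice alone, so that its direction was fixed by the filter. The droplet coat gene Plin2, by contrast, overlapped between the groups, with 303 and 92.8 in Control and 148 and 369 in Sham mice. Pnpla2, the lipase that begins the breakdown of stored triglyceride, was lower in both Sham mice, at 26.6 and 26.7 against 51.3 and 51.5. Pparg, a nuclear receptor that drives fat storage, was at 2.34 and 3.5 in Control and at 11.1 and 2.58 in Sham mice, so that its difference rested on Sham mouse 1. Without that mouse its log2 difference turned from 0.76 to -0.11.

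Of 23 genes of fatty acid and triglyceride synthesis, 10 were at least 2-fold lower (43.5%, against 5.58% of all genes) and 1 was higher, with a median of -0.7, or of -0.42 without Control mouse 1. Scd1, the main hepatic enzyme that makes monounsaturated fatty acids, was at 1123 and 308 in Control mice and at 27.7 and 4.32 in Sham mice. The log2 difference was -5.58 ± 1.51 (limma adjusted p = 0.325), and the mice of each group differed several-fold from each other. The related Scd2 and Scd3 fell, from 5.5 and 6.49 to 0.316 and 0.32 for Scd2 and from 8.59 and 10.1 to 0.125 and 0.149 for Scd3, but reads of the Scd genes may be shared between these near copies. Scd2 and Scd3 passed the FPKM limit through the Control mice alone, so that their direction was fixed by the filter. Lpin1, a phosphatidate phosphatase of triglyceride assembly, had FPKM values of 91.9 and 129 in Control and of 6.8 and 10.3 in Sham mice (-3.55 ± 0.44, limma adjusted p = 0.106). Elovl6, a fatty acid elongase, was at 15.4 and 15.1 in Control and at 3.87 and 1.39 in Sham mice. Srebf1, the regulator known for switching on lipogenic genes, was higher in both Sham mice, at 22.9 and 11.4 against 7.42 and 6.64 (limma adjusted p = 0.642). The spread behind this p includes the VSG mice, at 6.23 and 37.3. Fasn differed less, at 20.7 and 13.7 in Control and 12.8 and 7.72 in Sham mice.

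Genes of fatty acid oxidation and ketone production went in both directions. Among 38 tested, 5 were at least 2-fold higher (13.2%, against 5.65% of all genes), Ucp2 among them, and 9 lower (23.7%, against 5.58%). The median was -0.34, or -0.22 without Sham mouse 2. Acot1, a long-chain acyl-CoA thioesterase, was lower in both Sham mice, at 17.1 and 17.2 against 70.4 and 157, and Acadm, the medium-chain dehydrogenase of beta oxidation, was at 60.8 and 37.7 against 167 and 156. Ppara, the nuclear receptor of fasting and fat oxidation, read 41.9 and 36.2 in the Sham against 7.3 and 30.5 in the Control mice. Fgf21, a secreted fasting hormone, read 21.1 and 116 against 4.54 and 7.75 (2.87 ± 1.36, limma adjusted p = 0.493). Cpt1a, which controls the entry of long-chain fatty acids into mitochondria, overlapped between the groups, at 117 and 132 in Control and 87.6 and 164 in Sham mice. The 24 genes of cholesterol synthesis and uptake showed no common direction, with 1 gene at least 2-fold higher, 1 lower and 12 means on each side of 0.

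**Figure D2:**
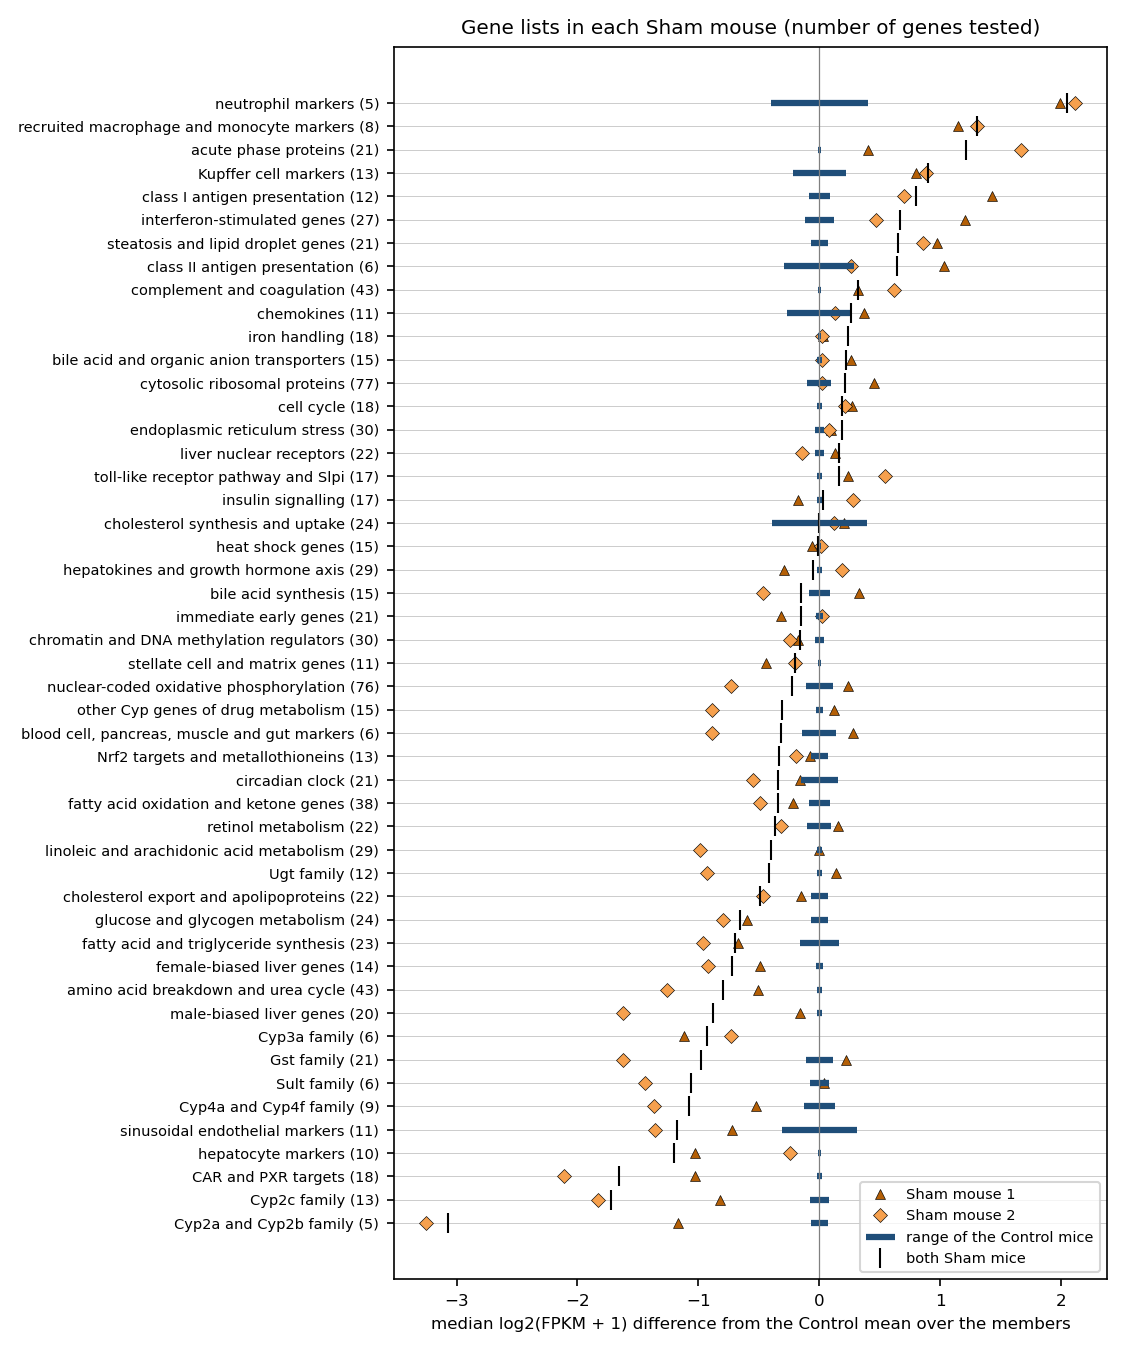
Median log2(FPKM + 1) difference from the Control mean over the tested members of each gene list with at least 5 tested members, for Sham mouse 1 (triangles), Sham mouse 2 (diamonds) and both together (vertical ticks), with the range of the Control mice as blue bars. Both Sham mice lie below the Control bar for CAR and PXR targets, at -1.03 and -2.11, and above it for recruited macrophage markers, at 1.15 and 1.3, whereas they fall on opposite sides for the Gst family, at 0.22 and -1.62.

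Large decreases occurred in part of the genes of foreign compound metabolism. Of 18 targets of CAR and PXR, the receptors that sense foreign compounds and bile acids in the liver, 12 were at least 2-fold lower in Sham mice (66.7%, against 5.58% of all genes), and the median was -1.66, or -1.03 without Sham mouse 2. The count is partly fixed by the filter. Cyp2b10 and Cyp2c55 passed the FPKM limit through the Control mice alone and could only come out lower. Cyp3a25 passed it through the Sham mice alone and could only come out higher. Cyp3a11, the most abundant P450 of its family in mouse liver, was at 1603 and 1293 FPKM in Control mice and at 48.6 and 7.32 in Sham mice (-6.15 ± 1.27, limma adjusted p = 0.247). Cyp2c29, an epoxygenase of arachidonic acid, was at 339 and 483 against 41.5 and 11.2 (-4.15 ± 0.84, limma adjusted p = 0.234). Ces2a, a carboxylesterase, had values of 190 and 177 against 22.1 and 3.33. In each of them Sham mouse 2 was lower than Sham mouse 1, and Cyp2b10 alone passed the limit of limma.

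The P450 families differed in how many members took part. In the Cyp2c family, 7 of 13 genes were at least 2-fold lower (53.8%, against 5.58% of all genes), among them Cyp2c37 (207 and 173 against 62.5 and 17.8) and Cyp2c50 (246 and 279 against 148 and 20.6). Cyp2c40 and Cyp2c67 overlapped between the groups, with log2 differences of -0.01 and 0. In the Cyp3a family, Cyp3a13 was at 108 and 119 in Control and 83.4 and 99.4 in Sham mice, a far smaller difference than that of Cyp3a11. Cyp3a25 was listed at 0 in both Control mice and at 60.5 and 35.1 in Sham mice. Cyp3a59 had a listed 0 and 34.7 in the Control mice and 7.88 and 5.11 in the Sham mice. Because these genes lie in clusters of close copies, reads may have been assigned to a neighbour. Of 5 Cyp2a and Cyp2b genes 3 were at least 2-fold lower (60.0%), and of 9 Cyp4a and Cyp4f genes 4 were (44.4%). Of 15 other Cyp genes of drug metabolism only 2 were (13.3%, against 5.58% of all genes). Their median was -0.31, with 0.12 in Sham mouse 1 and -0.89 in Sham mouse 2.

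The conjugating enzymes depended on the mouse. Of 21 Gst genes, glutathione transferases, 8 were at least 2-fold lower (38.1%, against 5.58% of all genes). The median was -0.98 with both Sham mice, -1.62 without Sham mouse 1 and 0.22 without Sham mouse 2. For the 12 Ugt genes, which attach glucuronic acid, these medians were -0.42, -0.93 and 0.14 (-0.76 without Control mouse 1), and for the 6 Sult genes, sulfotransferases, -1.06, -1.44 and 0.04. Gstm1 illustrates this, at 816 and 939 in Control mice, 467 in Sham mouse 1 and 59.2 in Sham mouse 2. The same held for 29 genes of linoleic and arachidonic acid metabolism, a list that shares members with the P450 families and for which 11 were at least 2-fold lower (37.9%, median -0.4, with 0 without Sham mouse 2, -0.99 without Sham mouse 1 and -1.03 without Control mouse 1). Sult1d1 was even between the Sham mice, at 27.9 and 33.2 against 86 and 86.1.

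Bile acid genes gave a mixed picture. Of 15 genes of bile acid synthesis, 3 were at least 2-fold lower (20.0%, against 5.58% of all genes) and 1 was higher (6.67%, against 5.65%). The median was -0.15, with -0.47 without Sham mouse 1 and 0.33 without Sham mouse 2. Cyp2c70, which makes muricholic acids in the mouse, was at 238 and 214 in Control and 73.3 and 62.6 in Sham mice (-1.72 ± 0.29, limma adjusted p = 0.176). Cyp7a1, the rate-limiting enzyme of bile acid synthesis from cholesterol, was at 2.28 and 2.6 in Control mice and at 4.58 in Sham mouse 2, and had a listed 0 in Sham mouse 1. Hsd3b7, an enzyme that alters the steroid ring of bile acids, was higher in both Sham mice, at 298 and 203 against 129 and 94.5. Slco1a1, an uptake transporter for organic anions, was lower at 10.2 and 21.5 against 85.8 and 83.9 (-2.43 ± 0.39, limma adjusted p = 0.157).

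**Figure D3:**
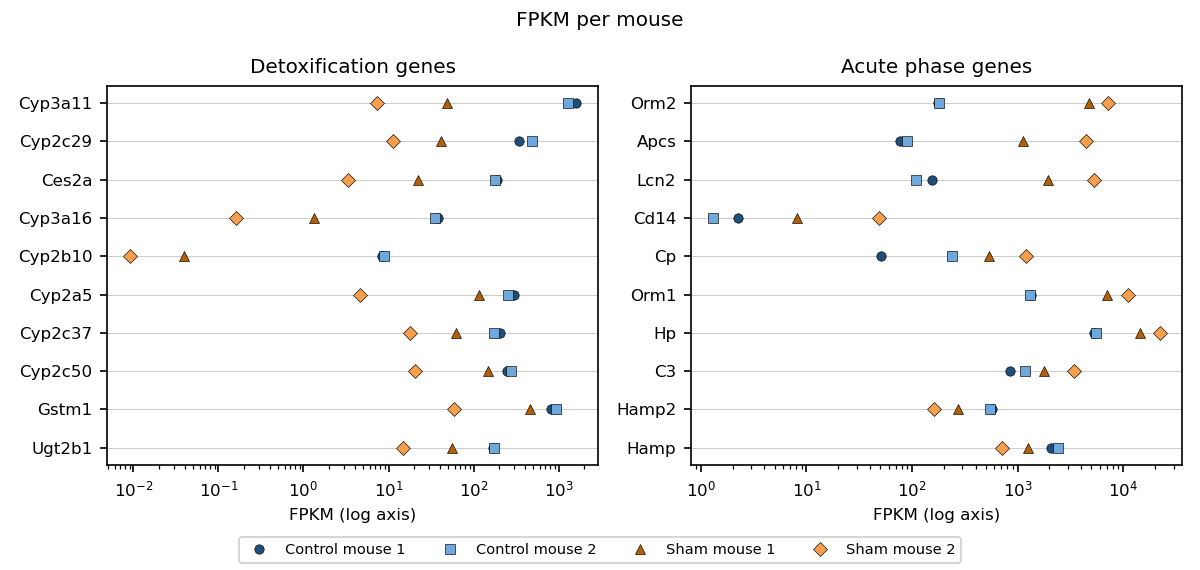
FPKM per mouse on a log axis for 10 detoxification genes (left) and 10 acute phase genes (right), with circles and squares for Control and triangles and diamonds for Sham mice. Sham mouse 2 holds the lowest value of every detoxification gene shown and the highest of every acute phase gene shown except Hamp and Hamp2, which are lowest there. The genes shown are examples and were not chosen by a rule. Sult1d1, not shown, is lowest in Sham mouse 1 (27.9, with 33.2 in Sham mouse 2), and Crp, not shown, is highest in a Control mouse.

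Amino acid breakdown was lower across most of its steps. Of 43 genes tested, 18 were at least 2-fold lower in Sham mice (41.9%, against 5.58%) and none was at least 2-fold higher, and 39 of the 43 means lay below 0. The median was -0.8, with -0.51 in Sham mouse 1 and -1.26 in Sham mouse 2. Beside Tat, which passed the test, Ass1 and Asl, which join nitrogen to citrulline and release arginine in the urea cycle, had low and even Sham values. Ass1 was at 1309 and 1302 in Control and at 300 and 256 in Sham mice (-2.23 ± 0.32, limma adjusted p = 0.138), and Asl at 553 and 527 against 152 and 127. The processed copy Gm5424 followed Ass1, at 330 and 326 against 79.3 and 64.7, but its sequence is close to that of Ass1 and reads may be shared.

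Other steps of the pathway varied in size. Cps1, the enzyme of entry into the urea cycle, was at 153 and 518 in Control and at 70.5 and 115 in Sham mice, and Arg1, which releases urea, was at 879 and 856 against 608 and 500. Aass, of lysine breakdown, was at 11.7 and 14.2 in Sham mice and at 66.2 and 125 in Control mice. Gnmt and Tdo2, which consume S-adenosylmethionine and tryptophan, were at 413 and 261 and at 269 and 277 in Sham mice, against 1287 and 1205 and against 819 and 897 in Control mice. Mat1a, which makes S-adenosylmethionine, was low only in Sham mouse 1, at 86.6, with 1088 in Sham mouse 2 and 1124 and 1199 in Control mice. Glul, the glutamine synthetase of hepatocytes around the central vein, was slightly higher at 395 and 456 against 338 and 345.

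Genes of glucose production and glycogen storage were lower as well. Of 24 tested, 8 were at least 2-fold lower (33.3%, against 5.58%) and none was at least 2-fold higher, with a median of -0.66. Among the 8, Ppp1r3g passed the FPKM limit through the Control mice alone and could only come out lower. G6pc, which releases glucose from glucose 6-phosphate, was at 144 and 272 in Control and at 24.3 and 27 in Sham mice (-2.9 ± 0.42, limma adjusted p = 0.138). Pck1, the enzyme that commits carbon to gluconeogenesis, was at 1490 and 1485 against 454 and 688 (-1.41 ± 0.49, limma adjusted p = 0.388). Gys2, the liver glycogen synthase, was at 123 and 118 against 60.6 and 49.8. Igfbp1, a gene that insulin represses, was at 466 and 567 in Control, 24.2 in Sham mouse 1 and 339 in Sham mouse 2. Pcx, which also belongs to gluconeogenesis, did not follow, at 110 and 109 in Control and 102 and 109 in Sham mice.

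**Figure D4:**
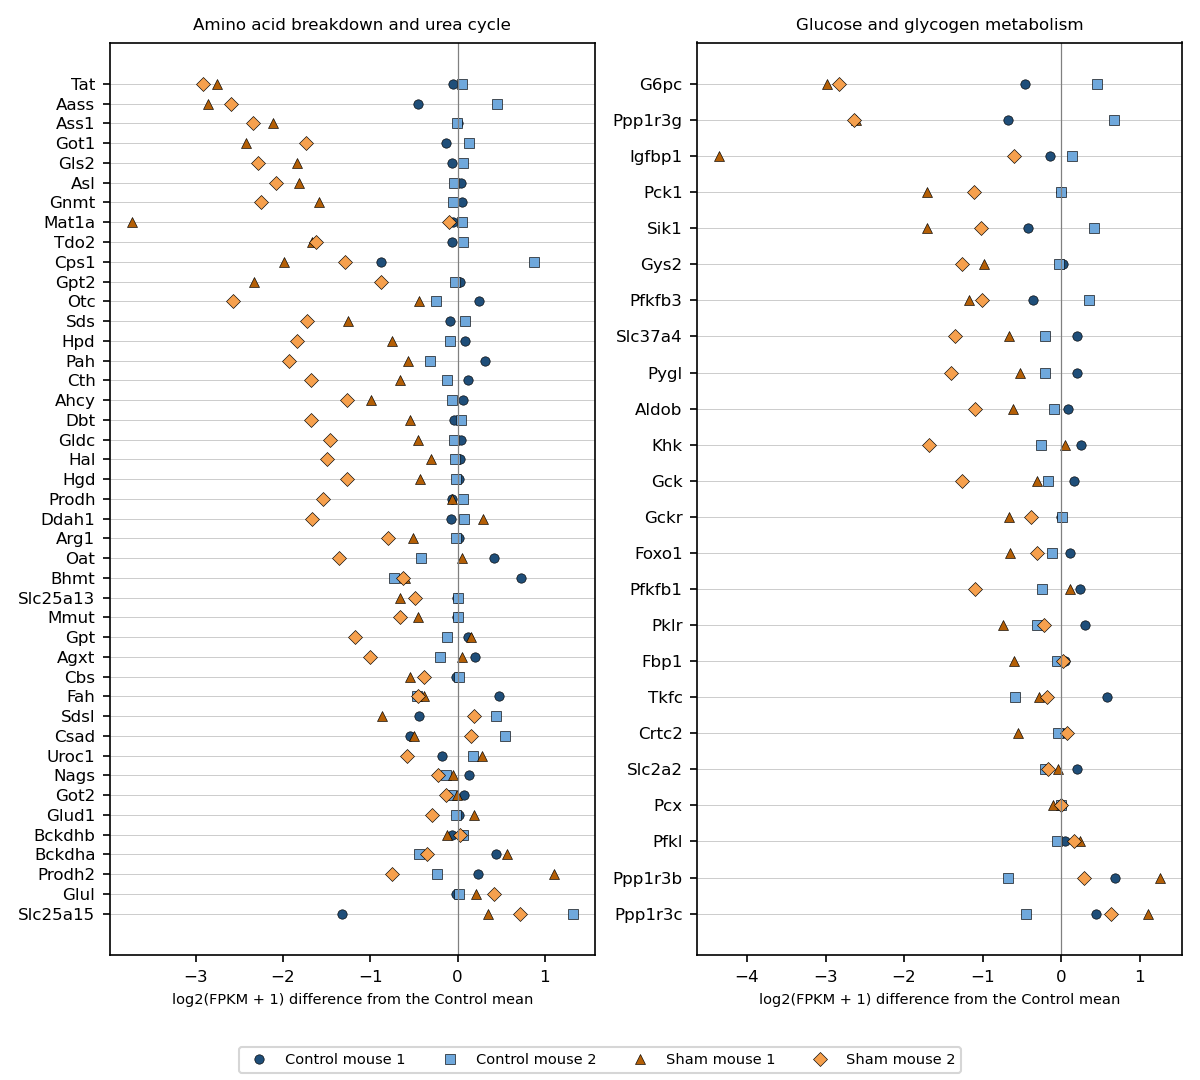
Difference from the Control mean on the log2(FPKM + 1) scale for each tested gene of amino acid breakdown and the urea cycle (left, 43 genes) and of glucose and glycogen metabolism (right, 24 genes), ordered by the mean of the Sham mice, with 1 point per mouse. Most Sham points lie left of 0, and the Sham mice agree closely for Tat and Ass1 but not for Mat1a or Igfbp1.

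Acute phase proteins were among the most abundant transcripts that were higher in Sham mice. Of 21 tested, 11 were at least 2-fold higher (52.4%, against 5.65%) and 2 were lower. The median was 1.21, with 0.4 in Sham mouse 1 alone and 1.67 in Sham mouse 2. Orm2, an orosomucoid, was at 178 and 180 in Control and at 4769 and 7138 in Sham mice (5.02 ± 0.72, limma adjusted p = 0.138). Apcs, the serum amyloid P component, was at 76.9 and 88.8 against 1125 and 4400 (4.73 ± 0.95, limma adjusted p = 0.234). Lcn2, an iron-binding siderophore trap made by hepatocytes and neutrophils, was at 154 and 109 against 1932 and 5279. Hp, haptoglobin, was already at 5340 and 5572 in Control mice and reached 14410 and 22141 in Sham mice.

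Cp, the copper-carrying ferroxidase, was higher as well, at 540 and 1190 against 50.8 and 237. Hamp and Hamp2, which encode the iron hormone hepcidin and its copy, were lower in both Sham mice, at 1253 and 718 against 2052 and 2407 for Hamp and at 272 and 160 against 575 and 542 for Hamp2. Serpina3n overlapped between the groups, at 1423 and 1443 in Control and 929 and 2191 in Sham mice, and so did Crp, at 261 and 312 and at 240 and 298. Cd14, the receptor that presents bacterial lipopolysaccharide, was at 2.25 and 1.31 in Control and at 8.13 and 49 in Sham mice. Among 43 complement and coagulation genes, 10 were at least 2-fold higher (23.3%, against 5.65% of all genes) and none lower, with a median of 0.32, or of 0.62 without Sham mouse 1. C3, the central complement protein, was at 843 and 1163 against 1778 and 3439, and C8b was at 171 and 163 against 91.1 and 99.2.

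Interferon-stimulated and antigen presentation genes were higher, more so in Sham mouse 1. Of 27 interferon-stimulated genes, 7 were at least 2-fold higher and 1 was lower (25.9% against 5.65% higher), with a median of 1.2 in Sham mouse 1 and 0.47 in Sham mouse 2. Isg15, a ubiquitin-like protein, was at 5.75 and 4.52 in Control and at 35.8 and 15.4 in Sham mice (2.01 ± 0.46, limma adjusted p = 0.266). Psmb9, an immunoproteasome subunit, was at 8.96 and 3.43 against 55.5 and 19.3 (2.35 ± 0.64, limma adjusted p = 0.329). Bst2, Irf7 and Gbp3 were higher in Sham mouse 1 and lower than both Control mice in Sham mouse 2, with 377 and 104 for Bst2 against 178 and 150 in Control. Of 12 class I genes, 6 were at least 2-fold higher (50.0%, against 5.65% of all genes), among them the peptide transporter subunits. Tap1 was at 14.9 and 9.28 in Sham against 4.31 and 3.66 in Control mice, and Tap2, which was even between the Sham mice, at 16.4 and 17.8 against 6.11 and 4.67.

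Macrophage genes that reached the FPKM limit were mostly higher and sinusoidal endothelial genes lower. Of 16 markers of recruited macrophages and monocytes, 8 reached the limit, and Ccr2, Ly6c2, Itgam, Itgax and Cx3cr1 were among those that did not. Among the 8 tested, 5 were at least 2-fold higher (62.5%, against 5.65% of all genes). All 8 had both Sham mice above both Control mice (25.4% of all genes did). A marker could pass the limit through the Sham mice alone, however, as Trem2 did, and its direction was then fixed by the filter. The summed FPKM of the tested markers was 54.7 and 54.9 in Control and 243 and 179 in Sham mice, of which Spp1 made up 183 and 58.4. Spp1 is also a bile duct cell marker, and Sox9, the other of 2 such markers tested, was at 0.384 and 1.26 in Control and 2.05 and 2.75 in Sham mice. Trem2, a lipid-sensing receptor of macrophages, was at 0.397 and 0.382 against 2.88 and 3.39 (1.57 ± 0.23, limma adjusted p = 0.141). Of 13 Kupffer cell markers, 6 were at least 2-fold higher (46.2%, against 5.65% of all genes). Among them were Marco (1.05 and 1.83 against 20.6 and 7) and the complement genes C1qa, C1qb and C1qc. The defining Kupffer marker Clec4f overlapped at 5.22 and 3.53 in Control and 2.11 and 8.75 in Sham mice. Of 12 neutrophil markers, 5 reached the FPKM limit, and the granule genes Mpo, Elane, Ngp, Camp and Ltf were among those that did not. Of the 5 tested, 3 were at least 2-fold higher (60.0%, against 5.65% of all genes) and 1 had a mean below 0. Lcn2, which hepatocytes also make, was among the 3. It held 1932 and 5279 of the summed FPKM of 1975 and 5325 of the tested markers in Sham mice. The calprotectin gene S100a9 was at 5.4 and 2.66 against 18.2 and 19.9. None of 16 T, B and NK cell markers reached the FPKM limit. How far these cell types contribute to the acute phase and interferon values was not tested.

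All 11 tested sinusoidal endothelial markers had a lower mean in Sham mice, 10 of them without overlap (21.3% of all genes had none in this direction), and 7 were at least 2-fold lower (63.6%, against 5.58% of all genes). Their summed FPKM was 75.2 and 33.8 in Control and 14.4 and 9.93 in Sham mice. Fcgr2b, an Fc receptor of these cells, was at 8.12 and 6.89 in Control and at 2.53 and 2.98 in Sham mice (-1.18 ± 0.21, limma adjusted p = 0.191). Eng and Oit3 were listed at 0 in both Sham mice. They passed the FPKM limit through the Control mice alone and could only come out lower, so that the count is partly fixed by the filter. Of the 11 markers, 4 were listed at 0 in at least 1 library. Clec4g differed widely between the Control mice alone, at 26.1 and 4.35. Of 11 stellate cell and matrix genes 1 was at least 2-fold higher and 2 were lower, the matrix proteins Ecm1 (42.3 and 26.5 against 2.97 and 4.48) and Dcn (40.6 and 41.7 against 13.9 and 23.8).

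**Figure D5:**
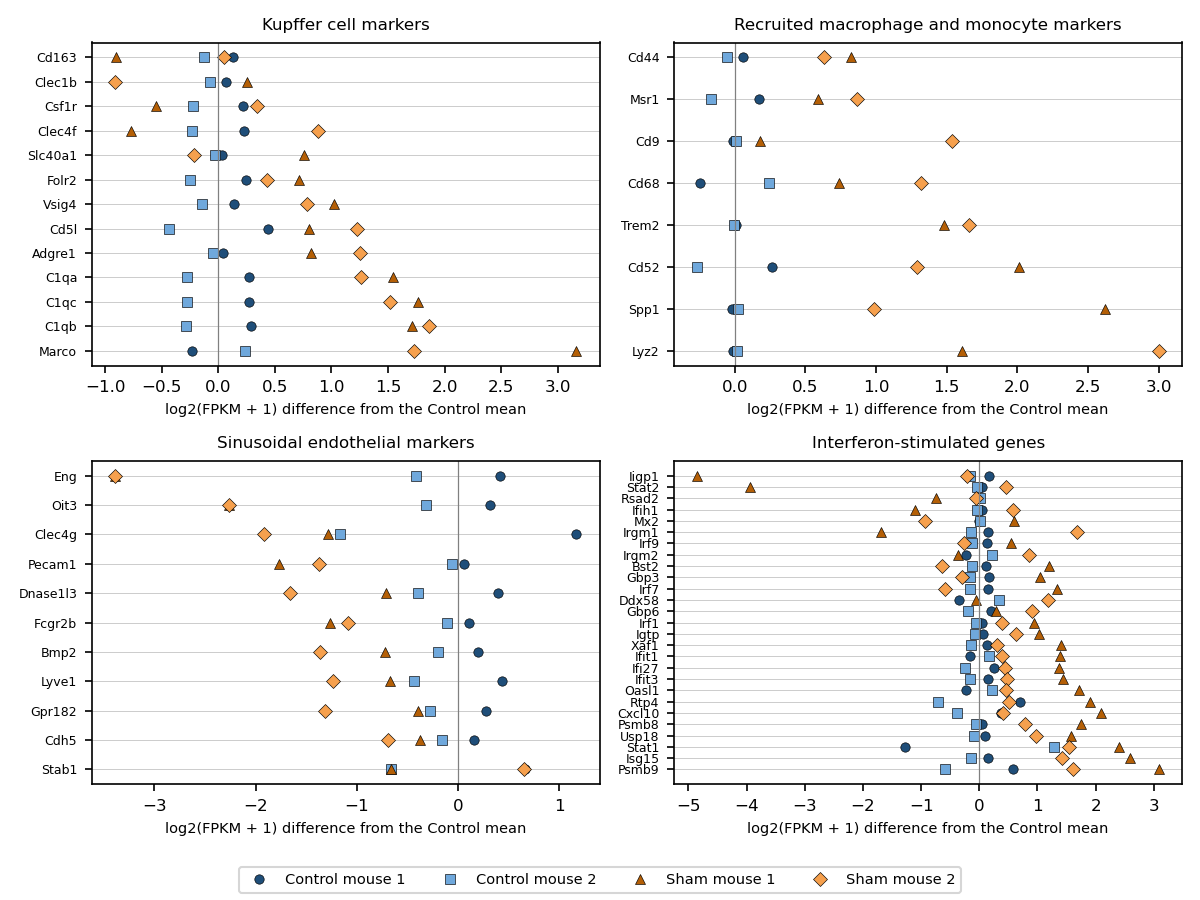
Difference from the Control mean on the log2(FPKM + 1) scale for each tested marker of Kupffer cells, recruited macrophages and sinusoidal endothelium and for interferon-stimulated genes, with 1 point per mouse. The Sham points of all 8 recruited macrophage markers lie right of the Control points, those of 10 of 11 endothelial markers lie left of them, and Sham mouse 1 lies farther right than Sham mouse 2 for Isg15 and Psmb9.

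Promoters were read beside these values, because the same livers were used for FAIRE-seq. RefSeq promoters (250 bases before to 50 after the start site, table build GRCm38.p6) were found for 7395 of the 9235 genes, and those of 6980 could be placed by exact match in mm9, the build of the peaks. A FAIRE peak lay within 1000 bp of the start site for 91.0% of these genes in the Control list and for 91.0% in the Sham list. For genes at least 2-fold higher in Sham mice the shares were 77.8% and 80.5%, with a peak in the Sham list only for 4.05%, against 1.78% of all genes. A peak in the Control list only was found for 1.35% of these higher genes, against 1.82% of all genes. For genes at least 2-fold lower, 3.46% had a peak in the Control list only and 2.66% in the Sham list only. With genes listed at 0 left out, these shares were 3.59% and 3.98%. The Sham list was longer, with 52881 peaks against 42204. Each list pools both mice of a group, so that these shares carry no replicate error and were not tested.

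The promoters printed here belong to named genes whose expression and chromatin can be read together, 4 with a peak in 1 of the lists only and 2 with a peak in both. They are examples and were not chosen by a rule. In each of the 4 the peak is in the list of the group with the higher expression, whereas the shares given above include genes with the opposite arrangement. They run 5′ to 3′ toward the gene, and capitals mark the motif named for each. All motifs were searched on both strands. The interferon motif GAAANNGAAA was present in 13 of 20 promoters of interferon-stimulated genes (65.0%) and in 3.02% of the 7395 promoters. TTCNNNGAA, the motif of STAT factors, was in 6.8% of all promoters and in 5.79% and 5.81% of those of genes at least 2-fold higher and lower. For TTGCNNAA, of C/EBP factors, these shares were 8.78%, 12.1% and 9.34%. The AGGTCA motif of nuclear receptors was in 12.9% of all promoters, in 16.1% for higher and in 14.1% for lower genes. A match describes letters only.
Isg15: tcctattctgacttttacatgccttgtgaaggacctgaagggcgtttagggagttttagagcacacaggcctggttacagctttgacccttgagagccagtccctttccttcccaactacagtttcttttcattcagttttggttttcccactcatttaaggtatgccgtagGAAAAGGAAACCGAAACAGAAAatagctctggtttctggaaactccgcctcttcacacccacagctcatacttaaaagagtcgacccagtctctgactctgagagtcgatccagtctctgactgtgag
Cxcl10: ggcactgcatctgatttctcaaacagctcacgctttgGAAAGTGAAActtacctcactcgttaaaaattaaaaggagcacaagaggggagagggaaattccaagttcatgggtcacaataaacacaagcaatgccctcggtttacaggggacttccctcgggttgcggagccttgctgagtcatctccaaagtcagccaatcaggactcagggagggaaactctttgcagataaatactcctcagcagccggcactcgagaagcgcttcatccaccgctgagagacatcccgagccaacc
Apcs: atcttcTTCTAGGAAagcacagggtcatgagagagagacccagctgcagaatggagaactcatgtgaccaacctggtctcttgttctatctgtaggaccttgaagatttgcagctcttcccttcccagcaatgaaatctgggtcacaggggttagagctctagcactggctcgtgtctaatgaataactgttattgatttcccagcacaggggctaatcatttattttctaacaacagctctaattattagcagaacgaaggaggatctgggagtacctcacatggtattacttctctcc
Slpi: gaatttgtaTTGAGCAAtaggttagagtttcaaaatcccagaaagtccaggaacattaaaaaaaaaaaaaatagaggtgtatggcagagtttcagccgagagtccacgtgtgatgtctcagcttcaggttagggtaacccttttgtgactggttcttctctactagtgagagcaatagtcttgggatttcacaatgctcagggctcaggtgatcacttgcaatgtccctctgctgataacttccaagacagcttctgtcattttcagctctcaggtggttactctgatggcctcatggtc
Orm2: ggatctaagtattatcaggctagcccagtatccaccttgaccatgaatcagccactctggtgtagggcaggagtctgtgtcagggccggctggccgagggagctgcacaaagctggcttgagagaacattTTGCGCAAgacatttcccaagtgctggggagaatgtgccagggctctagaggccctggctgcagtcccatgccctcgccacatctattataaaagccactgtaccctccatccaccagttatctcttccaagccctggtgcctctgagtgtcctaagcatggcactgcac
Cyp2b10: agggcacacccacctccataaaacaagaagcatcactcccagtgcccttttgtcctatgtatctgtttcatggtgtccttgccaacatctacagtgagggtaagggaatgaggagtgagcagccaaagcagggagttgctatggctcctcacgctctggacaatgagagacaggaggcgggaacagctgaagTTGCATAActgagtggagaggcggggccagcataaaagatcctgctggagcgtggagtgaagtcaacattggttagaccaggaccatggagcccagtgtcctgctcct

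The Isg15 promoter (mm9 chr4:155574878-155575177, minus strand) held 3 overlapping copies of GAAANNGAAA, which began at positions -78, -72 and -66 from the start site, with a peak in the Sham list only, at 155574799 to 155575045 and percentile 14.0, near the lower end of that list by signal. Cxcl10, which encodes a chemokine that draws T cells, held 1 copy at position -213 (chr5:92777866-92778165, minus strand) and a peak in both lists, and its FPKM was 1.57 and 0.52 in Control and 7.45 and 1.61 in Sham mice. Apcs (chr1:174825136-174825435, minus strand) held TTCNNNGAA at position -244 and a peak in the Sham list only, which ranked at percentile 7.5 of that list by signal, near its lower end. Slpi (chr2:164182194-164182493, minus strand) held TTGCNNAA at position -241, on the strand opposite to the printed one, which reads TTGAGCAA there. It had a peak in the Sham list only, at percentile 64.1. Orm2 (chr4:63023233-63023532, plus strand) held the same motif at position -120, with a peak at percentile 75.7 of the Control and 84.6 of the Sham list. At Cyp2b10 (chr7:26682427-26682726, plus strand) a copy lay at position -58, and the peak, at percentile 36.9, was in the Control list only.

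Clock genes and liver genes that differ between the sexes were lower in part. Of 21 clock genes, 8 were at least 2-fold lower (38.1%, against 5.58% of all genes) and 1 was higher (4.76%, against 5.65%), but 7 of the 21 were listed at 0 in at least 1 library. Cry1, a repressor of the clock, was at 5.26 and 3.69 in Control and 1.11 and 1.7 in Sham mice, whereas Nr1d1 was higher, at 19 and 15.6 against 7.88 and 6.84, and Dbp overlapped at 27.3 and 16.9 in Control and 40.4 and 17.1 in Sham mice. The hour of tissue collection was not given in the sources used here. Of 20 genes with higher expression in male than female liver, 6 were at least 2-fold lower (30.0%). Their median was -0.88, with -0.16 without Sham mouse 2 and -1.62 without Sham mouse 1. Of 14 female-biased genes 4 were lower (28.6%) and 1 was higher (7.14%), so that both sets leaned the same way. Of 29 genes of hepatokines and the growth hormone axis, by contrast, 6 were at least 2-fold higher (20.7%) and 4 lower (13.8%), with a median of -0.05. Igf1, the main hormone of the growth hormone axis, overlapped at 27.8 and 57 in Control and 20.7 and 43.9 in Sham mice. Enho, which encodes the secreted peptide adropin, was higher at 17.1 and 39.2 against 9.26 and 6.61.

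Other gene groups had shares of members at least 2-fold apart near or below those of all genes, which were 5.65% higher and 5.58% lower. None of 15 heat shock genes was at least 2-fold apart, with a median of -0.01. Of 30 genes of endoplasmic reticulum stress 2 were at least 2-fold higher and 1 was lower (median 0.19, but 0.08 without Sham mouse 1 and 0.1 without Sham mouse 2), and the lower one, Herpud1, was at 143 and 99.8 in Sham against 328 and 307 in Control mice. Among 76 nuclear-coded genes of oxidative phosphorylation, 2 were at least 2-fold lower and none higher, and 60 means lay below 0. The median was -0.23, with -0.73 without Sham mouse 1, 0.24 without Sham mouse 2 and -0.13 without Control mouse 1. Of 77 cytosolic ribosomal protein genes, 70 had a mean above Control, with a median of 0.21, of 0.02 without Sham mouse 1, 0.45 without Sham mouse 2 and 0.09 without Control mouse 2. Of 18 cell cycle genes 1 was higher and 1 lower, and Rrm2, a ribonucleotide reductase subunit, was at 1.87 and 0.945 in Sham against 4.96 and 4.54 in Control mice.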

How the data were processed

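Liver RNA of 2 Control and 2 Sham mice was compared, with 2 VSG mice for the spread only. The FPKM values were deposited by the authors, who aligned 50-bp reads to mm9 with TopHat2 and ran Cufflinks on RefSeq transcripts for each mouse; the labels state poly(A) enrichment, the study's methods ribosomal RNA depletion, and tool versions are not given in the sources used here. The peak signal of the deposited FAIRE lists was made by the authors with F-seq on bowtie1 alignments to mm9, with peaks kept by IDR over both mice of a group, and served here only to rank peaks within a list. Depth in reads is unknown. The authors' DESeq2 tables hold their own fold changes and p-values and were not used, nor were the VSG peaks and the lists of site positions.

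Of 34933 transcripts, 34046 matched a RefSeq symbol, and 106 unmatched transcripts reached the FPKM limit and were left out. FPKM values were summed per symbol, transformed as log2(FPKM + 1) and modelled over 6 libraries (limma 3.58.1, R 4.3.3) letting the prior variance follow the mean level, a 2-sided test of Sham minus Control and Benjamini-Hochberg adjustment over the 9235 genes tested; n = 2 mice per group. The labels do not say whether a group shared cages or batches, so p-values measure the spread between these samples. This spread, also that of each SE, is pooled over the Control, Sham and VSG mice. It can therefore be large where only the VSG mice differ from each other. The fit was tested on simulated data. The other steps used Python 3.11.15, pandas 2.3.3, numpy 2.4.6 and matplotlib 3.10.9.

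The comparison and the 53 gene lists, of which the Mup list matched no symbol, were chosen with earlier results of these data known. Lists are described by counts and medians beside those of all genes, with no test over a list. Genes named are the 10 with the smallest p in each direction (no overlap, above 0 in all 4 libraries, FPKM of at least 5 in both mice of the higher group), up to 4 extreme members of each list, and genes the study names; other members were named after their values were seen. Alb and several plasma protein genes had no matching symbol and were not analysed here. There were 17 alternative settings.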

Additional observations from a re-analysis of the deposited data

How the results depend on the processing

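With 2 mice per group, the count of limma calls (37, of which 15 higher and 22 lower) moved with most settings. It was 57 (23 and 34) with no FPKM filter, 16 (8 and 8) with an FPKM of at least 5 in 2 libraries, 6 (1 and 5) with genes listed at 0 left out, and 0 (0 and 0) with an FPKM of at least 1 in all 4 libraries, where 820 unadjusted p were under 0.05. With a pseudocount of 5, 8 genes were called higher, and with each transcript on its own 35 were called lower. Leaving out 1 library gave 0 to 170 calls, 0 to 28 higher and 0 to 142 lower, with 0 without either Control mouse, where 598 and 539 unadjusted p were under 0.05; the lone mouse is then assumed to vary like the other groups. Median ratio scaling gave 37 calls (35 shared with the result as reported), quantile normalization 37 (33 shared) and a pseudocount of 0.1 also 37 (29 shared). A fit of the 4 Control and Sham libraries alone gave 28 calls, of which 19 were shared. The cause of these moves was not tested beyond the genes that each setting removes.

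The genes at least 2-fold apart (522 higher, 515 lower) numbered 812 higher with a pseudocount of 0.1, 200 higher and 217 lower with a pseudocount of 5, 290 and 277 with an FPKM of at least 1 in all 4 libraries, 314 higher with an FPKM of at least 5, and 336 lower with genes listed at 0 left out. Leaving out 1 library gave 646 to 801 higher and 600 to 979 lower. Median ratio scaling shifted the median of all genes from 0.023 to -0.026.

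A fit with the replicate number as a block gave 10 calls (4 higher, 6 lower). The samples share only a number: deviations of same-numbered Control and Sham mice correlated at 0.12, and those with VSG mice at 0.05 and 0.05, so the replicate block is not read as a pairing.

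Of 2605 values of named genes under the alternatives, 2504 kept direction and side of the limit, 77 were weaker, 20 stronger and 4 reversed. The reversed ones were Cyp3a59 (-0.3 with a pseudocount of 5, and -2.28 to 2.88 with 1 library left out), Cyp7a1 (-1.78 to 0.7) and Pparg (-0.11 to 1.64), with the opposite sign without Control mouse 1, Sham mouse 1 and Sham mouse 1. Of 612 list medians, 130 moved by more than the spread between replicates.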

Other observations

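Iron, chromatin and retinoid genes were not described with the groups above. Over all genes, 5.65% were at least 2-fold higher and 5.58% at least 2-fold lower, and the counts given next are small. Of 18 genes of iron handling, 1 was at least 2-fold higher and 2 were lower in Sham mice, with a median log2 difference of 0.24 that was 0.02 without Sham mouse 1 and 0.03 without Sham mouse 2. Cp, the ferroxidase ceruloplasmin, was at 50.8 and 237 FPKM in Control and 540 and 1190 in Sham mice, and Hjv, a coreceptor of hepcidin induction, was at 30.6 and 23.8 against 51 and 50. Of 30 regulators of chromatin and DNA methylation, none was at least 2-fold higher and 3 were lower, among them Kat2b, a histone acetyltransferase, at 17 and 15.6 in Control and 2.91 and 10.9 in Sham mice, and Ncor1, a corepressor of nuclear receptors, at 7.83 and 6.55 against 1.45 and 4.25. Of 22 genes of retinol metabolism, 1 was higher and 2 were lower. Retsat, a retinol saturase, was at 205 and 282 in Control and 96.7 and 103 in Sham mice.

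Il18bp, the secreted inhibitor of interleukin 18, was called higher by limma (adjusted p = 0.00982) and was chosen for mention after its values were seen. Its FPKM was 0.376 in Control mouse 1, listed at 0 in Control mouse 2, and 28.3 and 36 in Sham mice. Mrpl18, a protein of the mitochondrial ribosome chosen in the same way, was at 40.2 and 40.9 in Control mice and listed at 0 in both Sham mice.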
